A study of Macaca mulatta with 17 samples.

Results

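Endothelial and vascular genes of the fetal rhesus macaque uterus were measured across 2 gestational ages and with or without maternal exposure to bisphenol A (BPA), an industrial chemical of plastics that binds estrogen receptors. The set was a list of 43 gene symbols, and it was matched by the probe descriptions of the array, or by an older symbol in the case of TIE1 and LYVE1. A probe was found for 42 of the 43 genes, out of 20217 probes on the array. ECSCR was not analysed here. Where a gene had several probes, the brightest probe, averaged across the 17 arrays, stood for it, so that no measured difference between groups entered the choice. The members were picked for their known place in blood vessels, lymphatic vessels and vessel walls, and several of them are also made by other cells of the uterus.

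RNA from the uterus of each female fetus was hybridized to an array of its own, and there were 17 arrays. The GD100 control group (5 fetuses) came from dams given the ethanol vehicle from gestational day 50 and was delivered by caesarean section on day 100. The GD100 BPA group (5 fetuses) was delivered in the same way after the dams had eaten 400 µg of deuterated BPA per kg per day over the same period. The GD165 control group (4 fetuses, replicates 1, 3, 5 and 6) and the GD165 BPA group (3 fetuses, replicates 3, 4 and 5) were delivered vaginally between gestational days 165 and 168, with vehicle or the same BPA dose from day 100, and stillborn fetuses were not included. Age and the mode of delivery cannot be told apart in these groups. Each sample was one side of a uterus that had been cut from fundus to cervix, a mixture of endometrium, myometrium and vessels, so that fewer vascular cells and less RNA per vascular cell cannot be told apart.

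Levels below are log2 signals, with the 75th percentile set equal on every array, and a difference of 1 on this scale is a 2-fold difference. A level belongs to its own probe and cannot be set against the level of another gene. Differences between groups were tested with limma on all 17 arrays, and a gene was called at a Benjamini-Hochberg adjusted p of at most 0.01 over all 20217 probes. Of the 42 genes, 40 were well above background on every array, and SELE and MMRN1 on 16 of 17. None was saturated. The markers of uterus and of the vessel lining were present on all 17 arrays for ESR1, HOXA10, PECAM1 and CDH5. In a list of 8 uterus genes, 1 was never well above background in each GD100 group, and 0 in each GD165 group.

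Blood vessels are lined by endothelial cells that hold together through junction proteins such as VE-cadherin (CDH5) and PECAM1. They grow under vascular endothelial growth factor (VEGF) and are stabilised by angiopoietin 1, which mural cells secrete and the endothelial receptor TEK (Tie2) binds. Pericytes and smooth muscle cells wrap the endothelium, and endothelial cells store von Willebrand factor and P-selectin together for rapid release. In the uterus these vessels grow with the organ before birth and are rebuilt in each cycle and pregnancy of adult life.

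Between GD100 and GD165 most of the set was higher at the later age in control fetuses. Of the 42 genes 36 had a higher mean level at GD165 and 6 a lower one, and the median log2 difference was 0.43, beside 0.00 over all probes. Markers of other cell types were also higher at GD165 in this comparison, smooth muscle in 9 of 9 genes (median 0.42), leukocytes in 10 of 12 (0.50) and epithelium in 6 of 7 (0.64). In each control group 2 of the 12 leukocyte genes were never well above background. The part of these cell types in the levels of the vascular genes was not tested. In limma's test 10 genes rose (RGS5, ANGPT1, AQP1, SOX18, VWF, SOX17, MMRN1, FLT1, MMRN2 and SELP) and 1 fell (NRP2). These 11 of 42 calls stand beside a background of 11.5% of all probes, of which 6.32% were higher and 5.20% lower. The control groups did not overlap for 14 of the 42 genes, beside 19.4% of all probes. At a threshold of 0.05 the count was 20 of 42, beside 21.2% of all probes. The number of calls depended on single animals. It was 5 without GD165 control replicate 6 (11.9% beside 7.48% of all probes) and 6 without GD165 control replicate 1 (14.3% beside 8.41%). Without GD100 control replicate 4 or 5 it was also 6 (14.3% beside 8.82% and 9.5%). Without GD165 control replicate 5 or GD100 control replicate 2 it was 7 (16.7% beside 11.2% and 10.1%). The share of all probes called thus fell as well in these fits. RGS5, ANGPT1, AQP1 and SOX18 stayed called in this comparison whichever of the 17 arrays was left out.

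**Figure D1:**
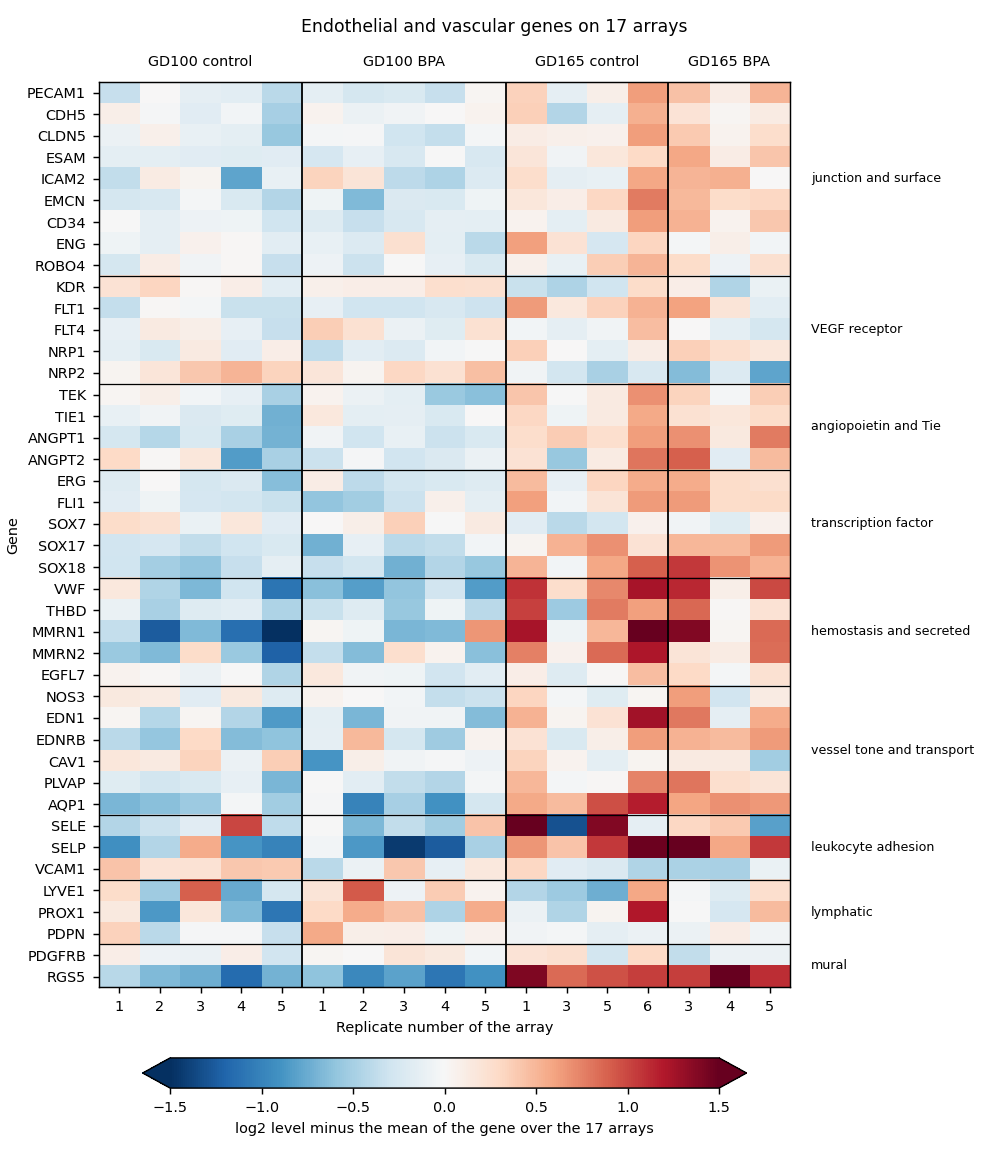
Heat map of 42 genes (rows, grouped by role) on 17 arrays (columns, grouped by age and treatment and labelled by replicate number); color gives the log2 level of a gene on an array minus its mean over the 17 arrays. RGS5, VWF, SELP and AQP1 are red on the GD165 arrays and blue on most GD100 arrays, while NRP2 runs the other way.

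The same comparison of ages was made in the BPA groups, which share no array with the controls. Both comparisons came from the same fit of all 17 arrays, with a shared estimate of spread, so their calls are not independent. In the BPA groups 8 genes rose (RGS5, SOX18, SOX17, AQP1, ESAM, ANGPT1, SELP and VWF) and 1 fell (NRP2). These 9 of 42 stood beside 9.68% of all probes called, 4.82% higher and 4.86% lower. The median log2 difference was 0.48, beside −0.05 over all probes, with 33 genes higher and 9 lower. Levels of the 2 BPA groups did not overlap for 20 of the 42 genes, beside 27.2% of all probes. At a threshold of 0.05 the count was 17 of 42, beside 21% of all probes, and 22 had an unadjusted p below 0.05, beside 34.5%. In all, 37 of the 42 genes had the same sign in controls and in BPA groups. The 8 genes called in both comparisons (RGS5, ANGPT1, AQP1, SOX18, SOX17, VWF, SELP and NRP2), each in the same direction, were 72.7% of the calls in controls and 88.9% of the calls in BPA groups. Over all probes the calls shared in direction were 57.9% and 69.0%, and 70.7% of all probes had the same sign. The count in the BPA groups was 5 without GD165 BPA replicate 3 (11.9% beside 6.5% of all probes) and 4 without GD165 BPA replicate 5 (9.52% beside 5.84%). RGS5, SOX17 and SOX18 stayed called there with any array left out.

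**Figure D2:**
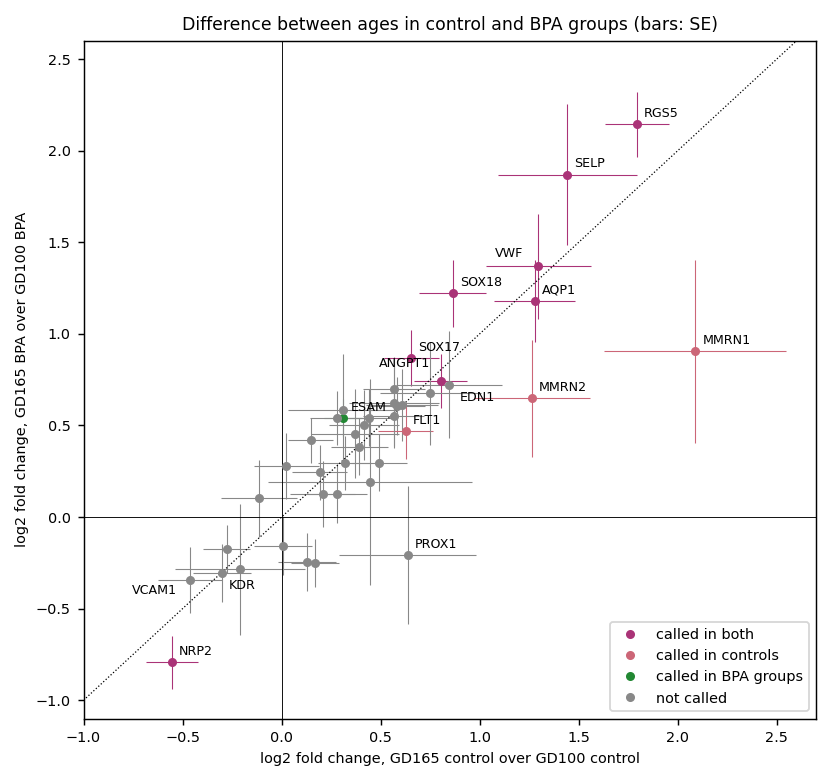
Log2 fold change of each of 42 genes between ages in control fetuses (x axis) and in BPA-exposed fetuses (y axis), with bars of 1 SE; the dotted line marks equal changes. RGS5 lies at 1.79 and 2.14 and NRP2 at −0.55 and −0.79, whereas MMRN1, at 2.09 and 0.90, lies far below the line.

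RGS5 and PDGFRB mark the vessel wall outside the endothelium, and RGS5 rose. RGS5, a regulator of G-protein signaling made by pericytes and vascular smooth muscle, had levels of 14.64, 14.39, 14.33, 13.91 and 14.34 in the 5 GD100 controls and 16.46, 15.91, 16.01 and 16.09 in the 4 GD165 controls. The lowest GD165 array was thus more than 2-fold above the highest GD100 array. The difference was 1.79 ± 0.16 (SE), a 3.47-fold rise (limma, adjusted p = 8.84e-06). With BPA the levels were 14.45, 14.08, 14.25, 13.97 and 14.15 at GD100 and 16.10, 16.71 and 16.17 at GD165, again without overlap, a difference of 2.14 ± 0.18 (adjusted p = 1.24e-05). On the slides that held arrays of both ages, RGS5 was higher at GD165 by 1.58 and 2.11 in controls and by 2.01 in BPA groups.

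PDGFRB, the receptor through which endothelial PDGF-B recruits pericytes, did not pass the test. Its control means were 13.64 ± 0.16 (SD, n = 5) at GD100 and 13.80 ± 0.26 (SD, n = 4) at GD165, a difference of 0.17 ± 0.12 (SE, adjusted p = 0.370). A separate list of 8 mural cell genes gave 7 with a probe. Between control ages limma called 0 of these 7, beside 11.5% of all probes, and the median difference was 0.19. Of the 7, 1 had an unadjusted p below 0.05, beside 33.1% of all probes. Likewise 0 of 7 were called by limma in the BPA groups, beside 9.68% of all probes, with 2 at an unadjusted p below 0.05, beside 34.5%. Of 9 measured smooth muscle genes 3 rose in controls (33.3%, beside 6.32% of all probes called higher), CNN1 by 1.28, LMOD1 by 1.22 and MYOCD by 0.82. The part of smooth muscle RNA in the difference of RGS5 was not tested.

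Angiopoietins and their receptors were higher at GD165 in all 4 cases, and 1 passed the test. ANGPT1, the ligand that mural and stromal cells make for TEK, had levels of 9.57, 9.41, 9.61, 9.35 and 9.13 in GD100 controls and 10.10, 10.21, 10.09 and 10.46 in GD165 controls. The ages did not overlap, and the rise was 0.80 ± 0.13 or 1.75-fold (limma, adjusted p = 0.000683). In BPA-exposed fetuses ANGPT1 was at 9.78, 9.54, 9.72, 9.51 and 9.61 at GD100 and at 10.52, 9.98 and 10.62 at GD165, a rise of 0.74 ± 0.15 (adjusted p = 0.00289) and again without overlap. A second ANGPT1 probe, annotated to another transcript variant, was higher by 0.90 ± 0.33 in controls (adjusted p = 0.0662).

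The receptor TEK differed by 0.42 ± 0.18 in controls (adjusted p = 0.108) and TIE1, its co-receptor, by 0.49 ± 0.14 (adjusted p = 0.0225). TIE1 missed the threshold of 0.01 and would pass one of 0.05. ANGPT2, the context-dependent antagonist that endothelial cells release, spread widely among GD165 controls, with levels of 10.51, 9.72, 10.41 and 11.09. Its GD100 control levels of 10.59, 10.31, 10.46, 9.46 and 9.81 overlapped with these, and the difference of 0.31 ± 0.28 did not pass (adjusted p = 0.488). PTPRB, the phosphatase that dampens TEK signaling and a gene of the pathway list, rose by 0.61 ± 0.14 in controls (adjusted p = 0.00576) and by 0.79 ± 0.15 in BPA groups (adjusted p = 0.00251).

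The VEGF receptors did not move together. FLT1, a VEGF receptor that also acts as a decoy, was at 6.57, 6.94, 6.90, 6.59 and 6.59 in GD100 controls and at 7.56, 7.08, 7.27 and 7.45 in GD165 controls. These ranges did not overlap, and the rise was 0.63 ± 0.14 or 1.54-fold (limma, adjusted p = 0.00519). KDR, the main signaling receptor for VEGF, had lower means at GD165, with levels of 11.83, 11.94, 11.63, 11.72 and 11.47 against 11.29, 11.16, 11.32 and 11.90. The last of these, GD165 control replicate 6, lay within the GD100 range, and the difference of −0.30 ± 0.15 did not pass the test (adjusted p = 0.167). Between ages of BPA-exposed fetuses KDR again differed by −0.30 ± 0.16 (adjusted p = 0.190) and FLT1 by 0.47 ± 0.15 (adjusted p = 0.0413). FLT4, the receptor of lymphatic growth, and NRP1, a co-receptor, differed by 0.13 ± 0.14 and 0.15 ± 0.11 in controls, neither past the threshold.

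NRP2, a co-receptor for VEGF-C and semaphorins that is found on veins and lymphatic vessels and on other cells, was the only member that fell. Its levels were 15.92, 16.06, 16.28, 16.39 and 16.21 in GD100 controls and 15.83, 15.61, 15.40 and 15.64 in GD165 controls. No GD165 control reached the lowest GD100 control, and NRP2 fell by 0.55 ± 0.13 on the log2 scale (limma, adjusted p = 0.00752). With BPA the levels went from 16.06, 15.92, 16.18, 16.11 and 16.33 at GD100 to 15.23, 15.67 and 15.09 at GD165, and NRP2 fell by 0.79 ± 0.14 (adjusted p = 0.00163). The call in controls was lost in 10 of the 17 fits that left out 1 array, with adjusted p up to 0.0253.

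The fall of NRP2 rested on 1 of its 3 probes. The probes carry annotations to human transcript variants 2, 6 and 4, and their first 30 bases of 60 are shown because the 3 sequences read different stretches of transcript and gave different results. The longest run that any pair of them shares is 7 bases.
NRP2, variant 2, brightest probe: tcgctggctgagccagatcatgggaacttg
NRP2, variant 6: taagtggggtacggggagtggagagtggtg
NRP2, variant 4: aatatactgtacaagttttgtttacttgga
The probe of variant 2 gave the fall. The probe of variant 6 differed by 0.11 ± 0.18 between control ages (adjusted p = 0.744) and the probe of variant 4 by −0.02 ± 0.22 (adjusted p = 0.963). In the BPA groups these probes differed by −0.23 ± 0.20 and −0.06 ± 0.24. Both were far dimmer, with GD100 control means of 6.85 and 6.35 against 16.17 for the brightest, though well above background on all 17 arrays. The mean over the 3 probes, which gives each the same weight, differed by −0.16 in controls (limma, adjusted p = 0.495). The call thus held for the brightest probe and was lost in a mean that the 2 dim probes dominate by number.

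The junction and surface proteins of the endothelium were higher at GD165 in all 9 measured genes in controls and in all 9 in BPA groups, by small amounts. In controls the differences ran from 0.21 to 0.58 and 0 of the 9 were called. CDH5, the adherens junction cadherin that defines the endothelium, was at 11.07, 10.97, 10.82, 10.95 and 10.49 in GD100 controls and at 11.35, 10.55, 10.86 and 11.52 in GD165 controls. GD165 control replicates 1 and 6 lay above all GD100 controls and replicates 3 and 5 among them, and the difference was 0.21 ± 0.17 (limma, adjusted p = 0.425). PECAM1, the adhesion protein CD31, differed by 0.44 ± 0.14 in controls (adjusted p = 0.0397) and by 0.54 ± 0.16 in BPA groups (adjusted p = 0.0230).

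EMCN, endomucin, a sialomucin of capillaries and veins, lay just outside the threshold. Its GD100 controls held 12.33, 12.36, 12.57, 12.37 and 12.16 and its GD165 controls 12.77, 12.70, 12.91 and 13.38, without overlap, and the difference was 0.58 ± 0.15 (adjusted p = 0.0104). ESAM, a tight junction adhesion protein of endothelium and platelets, passed in the BPA groups, where it rose from 11.62, 11.74, 11.62, 11.85 and 11.62 to 12.44, 11.97 and 12.28, by 0.54 ± 0.10 or 1.45-fold (adjusted p = 0.00244). Among controls its GD100 levels were tightly grouped at 11.70 ± 0.01 (SD, n = 5), all below the GD165 controls at 12.01 ± 0.15 (SD, n = 4), and the difference of 0.31 ± 0.10 had an adjusted p of 0.0307. CLDN5 (claudin 5, of tight junctions), CD34, ENG (endoglin, a TGF-beta co-receptor), ICAM2 and ROBO4 differed by 0.28 to 0.39 in controls, with none called.

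Of the 5 transcription factors 2 rose in each comparison, SOX17 and SOX18, relatives that act in arterial and lymphatic endothelium. SOX18 levels were 7.45, 7.23, 7.15, 7.39 and 7.61 in GD100 controls and 8.25, 7.71, 8.32 and 8.64 in GD165 controls. Even GD165 control replicate 3, the lowest of its group, lay above all GD100 controls, and the rise was 0.86 ± 0.17 or 1.82-fold (limma, adjusted p = 0.00205). In BPA-exposed fetuses SOX18 went from 7.39, 7.47, 7.03, 7.31 and 7.18 to 8.80, 8.42 and 8.27, by 1.22 ± 0.18 or 2.33-fold (adjusted p = 0.000446).

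SOX17, which uterine epithelium also makes, was at 15.03, 15.07, 14.94, 15.02 and 15.09 in GD100 controls and at 15.36, 15.84, 16.01 and 15.53 in GD165 controls, a rise of 0.65 ± 0.14 (adjusted p = 0.00373). Among its GD165 controls the order was unlike that of most members, with replicate 1 lowest and replicate 5 highest. With BPA it rose from 14.60, 15.20, 14.92, 14.95 and 15.28 to 15.82, 15.80 and 15.95, by 0.87 ± 0.15 (adjusted p = 0.00126). Epithelial markers moved in the same comparison: of 7 measured, 4 rose in controls (57.1%, beside 6.32% of all probes called higher). These were EPCAM by 1.23, KRT18 by 0.85, CLDN4 by 0.82 and CLDN3 by 0.59. The part of epithelium in the level of SOX17 was not tested. SOX7, the third of these relatives, had lower means at GD165, by −0.28 ± 0.12 in controls (adjusted p = 0.116).

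ERG and FLI1, ETS factors that maintain endothelial identity, differed alike in controls, by 0.57 ± 0.15 (adjusted p = 0.0156) and 0.57 ± 0.16 (adjusted p = 0.0185). FLI1 came closest to the threshold in the BPA groups, at 0.70 ± 0.17 (adjusted p = 0.0104).

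The secreted and hemostatic proteins held the largest median difference in controls of the role groups with more than 2 genes, 1.26, with 3 of 5 genes called. In the BPA groups their median was 0.67, below 0.70 for the transcription factors, with 1 of 5 called. VWF, von Willebrand factor, which endothelium and megakaryocytes make to tether platelets, had levels of 15.29, 14.67, 14.45, 14.83 and 14.03 in GD100 controls and 16.21, 15.39, 15.85 and 16.36 in GD165 controls. Only 0.10 separated the highest GD100 array from the lowest GD165 array, and the mean difference was 1.30 ± 0.26, a 2.46-fold rise (limma, adjusted p = 0.00275). In BPA-exposed fetuses VWF rose from 14.51, 14.31, 14.53, 14.84 and 14.30 to 16.26, 15.22 and 16.12, by 1.37 ± 0.29 or 2.58-fold (adjusted p = 0.00417).

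MMRN1, multimerin 1, a protein of platelets, veins and lymphatic endothelium, rose in controls from low and uneven levels. These were 5.70, 4.81, 5.40, 4.92 and 3.96 at GD100 and 7.30, 6.00, 6.56 and 8.33 at GD165. The spread within each age was wide, over more than 1 log2 unit, yet the ages did not overlap, and the rise was 2.09 ± 0.46 or 4.25-fold (limma, adjusted p = 0.00465). This call was lost in 5 of the 17 fits that left out 1 array. At GD100 1 of the 5 controls was not well above background, and with normexp background correction the rise of MMRN1 was 1.07, about 1 log2 unit less. MMRN1 in the BPA groups was at 6.08, 5.99, 5.38, 5.39 and 6.72 at GD100 and at 7.45, 6.09 and 6.91 at GD165. These overlapped, and the difference of 0.90 ± 0.50 did not pass (adjusted p = 0.216). Whether the age difference itself differed with BPA was tested by the interaction, −1.18 ± 0.68, which did not pass either (adjusted p = 0.707).

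MMRN2, multimerin 2, an endothelial matrix protein, rose by 1.26 ± 0.29 in controls (adjusted p = 0.00629), from 8.40, 8.31, 9.24, 8.41 and 7.75 to 9.73, 9.03, 9.81 and 10.18. This call was lost in 7 of the 17 fits that left out 1 array. GD100 control replicate 3 lay above GD165 control replicate 3, so the ages overlapped, and on the slide that held this pair MMRN2 was lower at GD165 by −0.21. In the BPA groups it differed by 0.65 ± 0.32 (adjusted p = 0.163). THBD, thrombomodulin, which turns thrombin toward anticoagulation, split the GD165 controls into replicate 3 at 7.92 and the others at 9.48, 9.24 and 9.07. Its GD100 controls lay between 7.97 and 8.36, and the difference was 0.75 ± 0.26 (adjusted p = 0.0492). EGFL7, a secreted endothelial factor, differed by 0.19 ± 0.14.

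Platelets carry VWF, MMRN1 and P-selectin, so their own markers were measured beside these genes. Of 8 platelet and megakaryocyte genes 0 were called by limma between control ages, beside 11.5% of all probes. An unadjusted p below 0.05 was held by 1 of the 8, beside 33.1% of all probes. At GD165 6 of the 8 were lower (median −0.14). With BPA 7 of the 8 were lower and 1, GP1BA, fell by 0.89 on the log2 scale (12.5% called, beside 9.68% of all probes). The part of platelets in the levels of VWF, MMRN1 and SELP was not tested. A list of 10 erythroid genes, which holds no globin, had lower means at GD165 in 9 of 10 cases in each comparison. In controls limma called 0 of the 10, beside 11.5% of all probes, and 3 had an unadjusted p below 0.05, beside 33.1%. In the BPA groups 3 fell (30%, beside 4.86% of all probes called lower). HBB, beta globin, named after its values were seen, rose by 6.46 ± 0.74 in controls (limma, adjusted p = 3.97e-05) and by 4.67 ± 0.81 in BPA groups (adjusted p = 0.00117). The other globin probes, of HBE1, HBM, HBG1, HBQ1 and HBZ, had lower means at GD165 in both comparisons. Their differences ran from −2.01 to −0.15 in controls, with none called, and from −3.72 to −0.49 in BPA groups. Of these, HBE1 was called in the BPA groups (limma, adjusted p = 0.00488). HBB thus ran against the other globin probes and most of the erythroid list.

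SELP, P-selectin, which captures leukocytes on activated endothelium, was at 10.62, 11.11, 12.11, 10.66 and 10.54 in GD100 controls and at 12.20, 11.98, 12.61 and 13.02 in GD165 controls. One GD100 array, replicate 3, lay above GD165 control replicate 3, and the others were well below. The rise was 1.44 ± 0.35 or 2.72-fold (limma, adjusted p = 0.00877), and it passed the threshold in only 6 of the 17 fits that left out 1 array. SELP in the BPA groups rose from 11.51, 10.68, 10.10, 10.30 and 11.05 to 13.06, 12.12 and 12.61, without overlap, by 1.87 ± 0.38 or 3.65-fold (adjusted p = 0.00360).

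The other adhesion molecules for leukocytes were not called. VCAM1, which stromal cells also carry, had lower means at GD165, by −0.46 ± 0.16 in controls (adjusted p = 0.0576) and −0.34 ± 0.18 in BPA groups (adjusted p = 0.186). SELE, E-selectin, was the least even member: its GD165 controls held 6.16, 3.24, 5.95 and 4.42, a range that enclosed all 5 GD100 controls. Of 12 leukocyte markers 1 rose in controls, LYZ by 1.99 (8.33%, beside 6.32% of all probes called higher).

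Among genes of vessel tone and transport, AQP1, the water channel of endothelium and red cells that smooth muscle and stroma can also make, rose in both comparisons. Its levels were 15.10, 15.15, 15.23, 15.76 and 15.26 in GD100 controls and 16.35, 16.25, 16.74 and 16.96 in GD165 controls. GD100 control replicate 4 stood above the other 4 of its group and still below all GD165 controls, and the rise was 1.28 ± 0.21 or 2.42-fold (limma, adjusted p = 0.000496). In BPA-exposed fetuses AQP1 went from 15.76, 14.78, 15.28, 14.87 and 15.52 to 16.37, 16.47 and 16.43, by 1.18 ± 0.22 (adjusted p = 0.00219).

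A second AQP1 probe gave a rise of 1.45 ± 0.20 in controls (adjusted p = 0.000178) and 1.58 ± 0.22 in BPA groups (adjusted p = 0.000286). The probes overlap by 23 bases, shown in capitals in the last 30 bases of one and the first 30 of the other, so they share part of their target and are not independent measures of AQP1.
AQP1, variant 1: atatgtcTCTTTGGAGTTGGAATTTCATTA
AQP1, variant 2: TCTTTGGAGTTGGAATTTCATTAtatgtta

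The other genes of this group did not pass. EDN1, endothelin 1, a constrictor peptide, was at 11.63, 11.17, 11.63, 11.16 and 10.75 in GD100 controls and at 12.12, 11.64, 11.82 and 12.87 in GD165 controls. The lowest GD165 array lay just above the highest GD100 arrays, and the difference was 0.85 ± 0.27 (adjusted p = 0.0351). Its receptor EDNRB differed by 0.57 ± 0.22 (adjusted p = 0.0880), and a second EDNRB probe by 0.63 ± 0.23 (adjusted p = 0.0646). NOS3, endothelial nitric oxide synthase, had means of 12.27 ± 0.18 (SD, n = 5) and 12.29 ± 0.21 (SD, n = 4), with a 95% interval of the difference from −0.33 to 0.38. PLVAP, which forms the diaphragms of fenestrated capillaries, differed by 0.61 ± 0.18 (adjusted p = 0.0259), and CAV1, caveolin 1, by −0.11 ± 0.19 (adjusted p = 0.742).

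**Figure D3:**
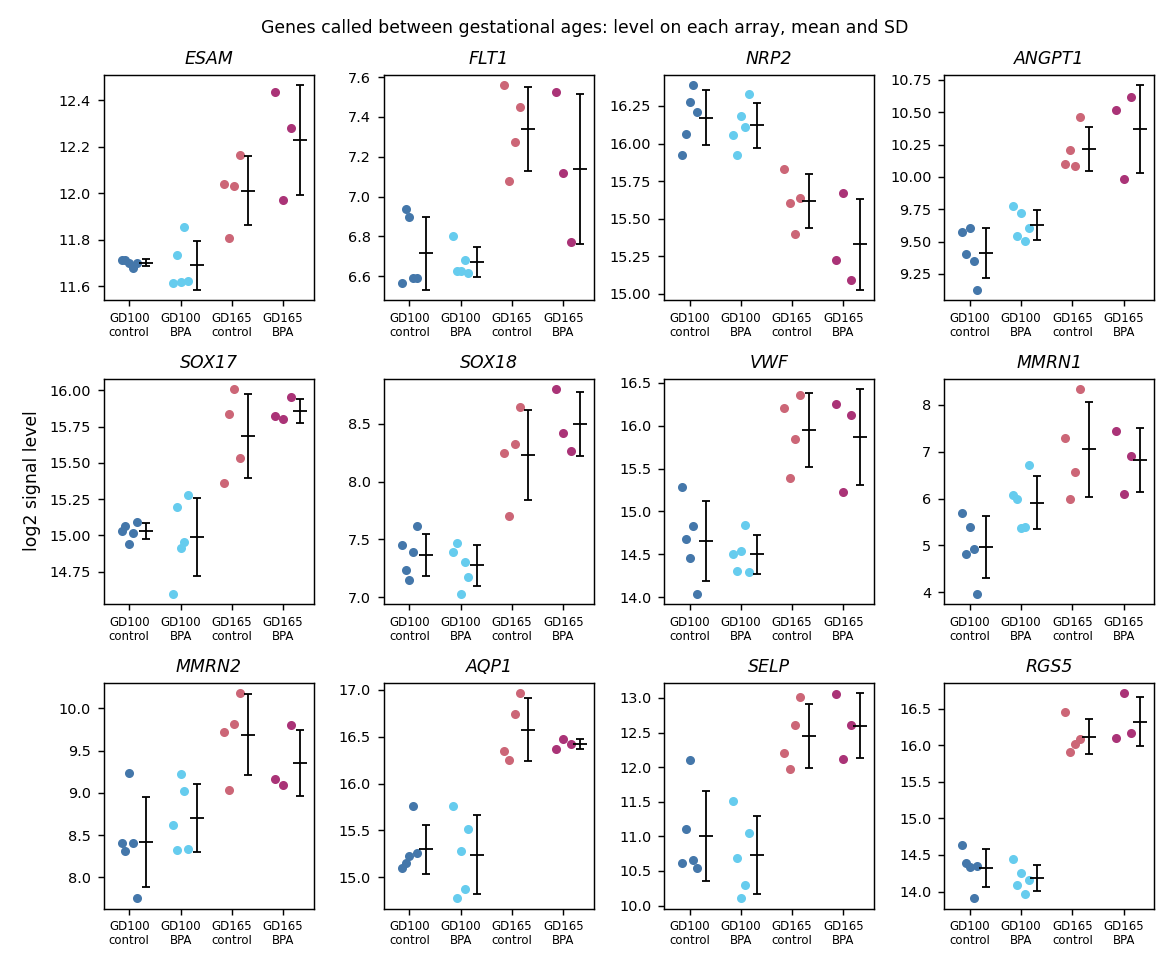
Log2 signal level of the 12 genes called between ages in controls or in BPA groups, on each array (points, by group, n = 5, 5, 4 and 3), with the mean and SD beside the points; the y axes differ between genes and do not start at 0. RGS5 and AQP1 leave a gap between all GD100 and all GD165 arrays, while MMRN2 and SELP overlap between control ages.

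None of the 3 lymphatic genes was called between ages. PROX1, the master regulator of lymphatic fate, was at 7.14, 6.14, 7.16, 6.34 and 5.91 in GD100 controls and at 6.91, 6.55, 7.04 and 8.20 in GD165 controls. Only GD165 control replicate 6 lay above the GD100 range, and the difference of 0.64 ± 0.34 did not pass (limma, adjusted p = 0.219). LYVE1, a hyaluronan receptor of lymphatic vessels and some macrophages, differed by −0.21 ± 0.33 and PDPN, podoplanin, by 0.01 ± 0.15. In the BPA groups PROX1, LYVE1 and PDPN all had lower means at GD165, by −0.21, −0.28 and −0.16, and none was called.

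Other genes of the same pathways came from a list of 49, of which 44 had a probe. In controls 7 of the 44 were called (15.9%, beside 11.5% of all probes), 4 higher and 3 lower, and the median difference was 0.09. S1PR1, the sphingosine 1-phosphate receptor that steadies endothelial junctions, rose by 0.94 ± 0.15 (adjusted p = 0.000553). ADM, adrenomedullin, a dilator peptide, rose by 0.93 ± 0.23 (adjusted p = 0.00823), and HEY1, a Notch target of arterial endothelium, by 0.66 ± 0.11 (adjusted p = 0.000753); PTPRB was the other gene that rose. The genes that fell were VEGFD, a lymphatic growth factor, by 1.67 ± 0.28 (adjusted p = 0.000694), APLN, the peptide of sprouting tip cells, by 1.25 ± 0.18 (adjusted p = 0.000181), and GATA2, a transcription factor of endothelium, stroma and blood, by 0.59 ± 0.09 (adjusted p = 0.000260). In the BPA groups 11 of the 44 were called (25.0%, beside 9.68% of all probes), 8 higher and 3 lower, with a median of 0.27, and S1PR1 (1.27 ± 0.17), HEY1 (0.57 ± 0.12), VEGFD (−2.34 ± 0.30), APLN (−0.84 ± 0.19) and GATA2 (−0.43 ± 0.10) passed again.

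Within a group, the same animals were often lowest or highest across the vascular genes. Among the 4 GD165 controls, replicate 3 held the lowest level for 30 of the 42 genes (71.4%), while it was the lowest for 19.0% of all probes. Replicate 6 held the highest level for 30 genes (71.4%), beside 29.1% of all probes. GD100 control replicate 5 was the lowest of 5 for 25 genes (59.5% beside 28.0% of all probes), and GD165 BPA replicate 4 was the lowest of 3 for 27 (64.3% beside 29.0%). The mean deviation of the 42 genes from their group was −0.34 in GD165 control replicate 3 and 0.32 in replicate 6, a gap wider than the median difference between ages. As a score, the mean over the 42 genes of each level minus its mean over all arrays, the GD100 controls ran from −0.45 to −0.06 and the GD165 controls from −0.07 to 0.59. Replicate 3 thus reached the GD100 range by a narrow margin, and the GD165 BPA arrays, at 0.13 to 0.42, did not.

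**Figure D4:**
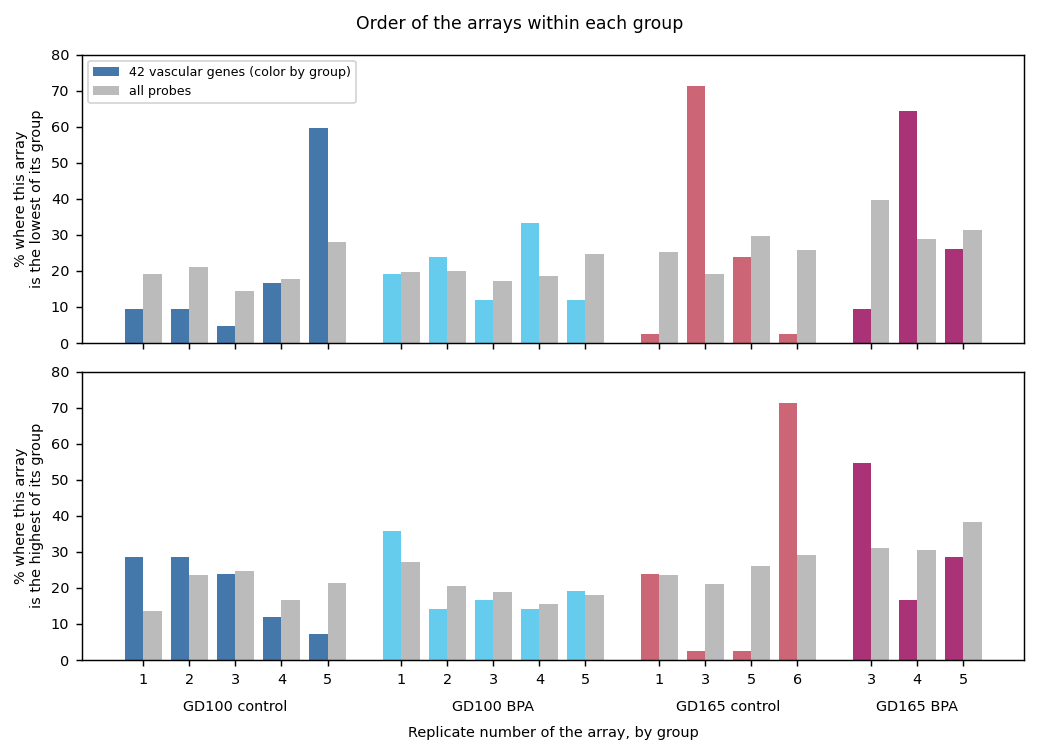
Share of the 42 vascular genes (colored bars) and of all 20217 probes (grey bars) for which an array held the lowest (upper panel) or highest (lower panel) level of its group; y axis in percent, from 0. GD165 control replicate 3 is the lowest for 71.4% of the genes and replicate 6 the highest for 71.4%.

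Marker lists of other cell types were scored on the same arrays. The score of the smooth muscle list was 0.58 in GD165 control replicate 3 and 0.27 in replicate 6, that of the leukocyte list 0.33 and 0.54, that of the epithelial list 0.35 and 0.57, that of the erythroid list −0.13 and 0.31, and that of 2 mesothelial genes 0.54 and 0.99. The mural cell list scored 0.11 and 0.07 on these arrays, the platelet and megakaryocyte list 0.10 and 0.19, and the list of pathway genes −0.11 and 0.19. Cell cycle genes, of which 10 of 10 fell between control ages (beside 5.20% of all probes called lower), scored −0.91 and −0.74. The share of spots well above background was 87.6% and 87.0%, and the 75th percentile of the log2 signal before scaling was 12.46 and 12.66. The part of these measures in the order of the vascular genes was not tested.

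Slides carried unequal numbers of each group. The arrays of a slide are part of the whole comparison, so signs within a slide tend to match it in any case, and the share of all probes is given beside each count. On the slide that held GD165 control replicate 1 and GD100 control replicate 5, 42 of the 42 genes had the sign of the whole comparison, beside 79.0% of all probes. On the slide with GD165 control replicate 3 and GD100 control replicate 3 the number was 27 of 42, beside 76.5% of all probes, with SELP and MMRN2 turned among the 11 called genes. For both ages of the BPA groups it was 39 of 42, beside 78.7%. In the comparisons of BPA with control, where no gene was called, 28 to 33 of the 42 genes matched within a slide, beside 60.2 to 71.4% of all probes. With slide as a fixed block the calls dropped to 2 of 42 in controls, 4.76% beside 6.10% of all probes (RGS5 at 1.85, adjusted p = 0.000767, and ANGPT1 at 0.90, adjusted p = 0.00406) and to 3 in BPA groups, 7.14% beside 2.53% (RGS5, SOX18 and ANGPT1). In controls the share of the members was thus not above that of all probes in this fit. GD165 control replicate 5, alone on its slide, adds nothing to it. With slide as a random block the counts were 11 and 9.

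BPA exposure was compared with vehicle within each age. At GD100, 0 of the 42 genes were called by limma, beside 0% of all probes, and 3 had an unadjusted p below 0.05, beside 3.79% of all probes. The median difference was −0.01, with 20 genes higher and 22 lower in BPA-exposed fetuses. The groups did not overlap for 0 of the 42 genes, beside 0.782% of all probes. At GD165, 0 were called, beside 0% of all probes, and 1 had an unadjusted p below 0.05, beside 8.61% of all probes, with a median of 0.04. Here too 0 genes were without overlap, beside 7.31% of all probes. A p that misses the threshold does not show equal levels, and the 95% intervals give the range that the data allow. At GD100 the interval lay within a 2-fold change in either direction for 38 of the 42 genes and within a 1.5-fold change for 31. At GD165, with 3 arrays against 4, these numbers were 37 and 22.

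Over the 42 genes the differences with BPA ran from −0.37 to 0.95 at GD100 and from −0.43 to 0.36 at GD165. The means of CDH5, PECAM1, KDR and RGS5 differed little, and PDGFRB is given below. CDH5 differed by 0.12 ± 0.16 at GD100 and by 0.04 ± 0.19 at GD165, and PECAM1 by 0.02 ± 0.13 and 0.12 ± 0.16. KDR differed by 0.05 ± 0.14 and 0.05 ± 0.17, and RGS5 by −0.14 ± 0.15 and 0.21 ± 0.19. The GD100 BPA levels of RGS5, from 13.97 to 14.45, lay within those of the controls.

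The 3 genes with an unadjusted p below 0.05 at GD100 were MMRN1, PROX1 and VCAM1. MMRN1 held 6.08, 5.99, 5.38, 5.39 and 6.72 with BPA against 5.70, 4.81, 5.40, 4.92 and 3.96 without, a difference of 0.95 ± 0.43 (limma, adjusted p = 1). PROX1 held 7.29, 7.55, 7.43, 6.53 and 7.55 with BPA against 7.14, 6.14, 7.16, 6.34 and 5.91 without, a difference of 0.74 ± 0.32 (limma, adjusted p = 1). Both genes are active in lymphatic endothelium, and for both the ranges overlapped. The other lymphatic genes, LYVE1 and PDPN, differed by 0.37 ± 0.31 and 0.24 ± 0.14, and FLT4 by 0.18 ± 0.14. VCAM1 differed by −0.34 ± 0.15 (limma, adjusted p = 1). At GD165 the differences of MMRN1 and PROX1 with BPA were −0.23 ± 0.52 and −0.11 ± 0.39.

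At GD165 the gene with an unadjusted p below 0.05 was PDGFRB, at 13.32, 13.60 and 13.60 with BPA against 13.89, 13.93, 13.42 and 13.98 without. GD165 control replicate 5 lay among the BPA arrays, and the difference was −0.30 ± 0.14 (limma, adjusted p = 0.575). In the interaction of BPA and age 0 of the 42 genes were called by limma, beside 0% of all probes, and 1 had an unadjusted p below 0.05, again PDGFRB, at −0.42 ± 0.18 (limma, adjusted p = 0.602), beside 7.83% of all probes.

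**Figure D5:**
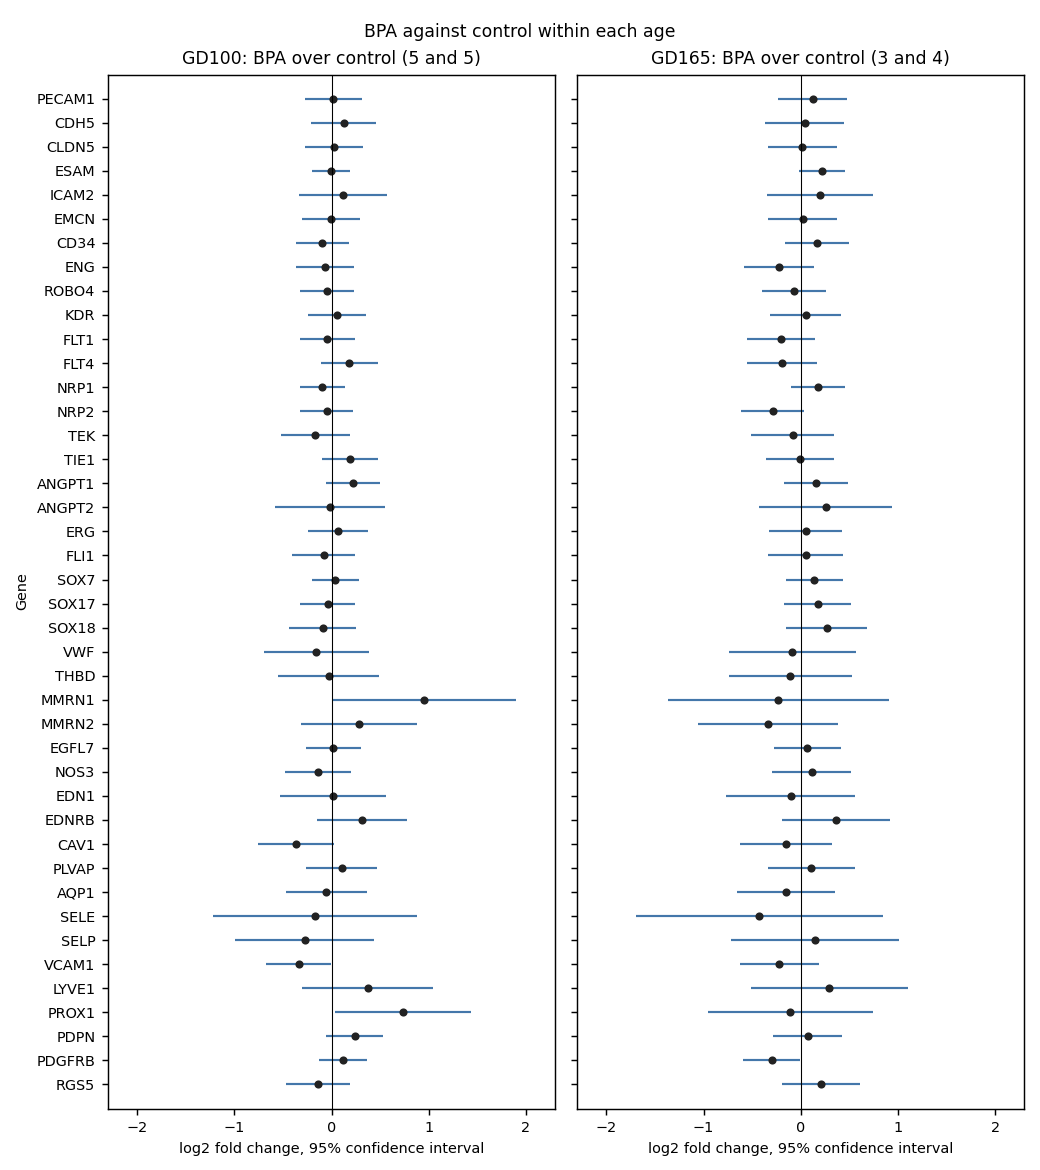
Log2 fold change of BPA over control for 42 genes at GD100 (left, 5 against 5 arrays) and GD165 (right, 3 against 4), with points for the estimate and lines for the unadjusted 95% confidence interval. Most intervals cross 0; those of MMRN1 (0.95), PROX1 (0.74) and VCAM1 (−0.34) at GD100 and of PDGFRB (−0.30) at GD165 do not, and SELE has the widest interval in both panels.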

How the data were processed

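The authors hybridized Cy3-labeled RNA of 17 fetal uteri to Agilent rhesus macaque arrays and deposited the signals of Agilent Feature Extraction 9.5, run at its one-color defaults, as linear intensity values after background subtraction, without scaling between arrays. The deposited table of all arrays was equal to these values. Here control and outlier spots were left out, the log2 intensity of the 2 spots of a probe was averaged, and each array's 75th percentile was subtracted (its mean, 12.62, was added back for levels). limma 3.58.1 in R 4.3.3 (lmFit, eBayes) was fitted to 4 groups with 13 residual degrees of freedom, two-sided, and adjusted over 20217 probes. The error-weighted analysis of variance named in the study's methods was not used here, and limma's moderated test on the animals' values took its place. Per array, 83.8 to 89.0% of spots were well above background, and the number of arrays limits the precision. Probes were named from their descriptions, and no coordinates are given because the build of the files' coordinates was not settled. Fits were tested on simulated data whose noise was independent between probes and arrays. That setting leaves out shifts shared by many genes of an animal or by the arrays of a slide. Each fetus gave 1 array, and no 2 arrays were identical. Animals with the same replicate number did not deviate together.

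The members, the gene lists and the rule for naming genes (every member, list genes past the threshold in the control age comparison, and up to 3 more per list) were chosen with earlier results of these data known. Alternatives were normexp background correction, median scaling, quantile normalization, no scaling, a filter on dim probes, outlier spots kept, the compared groups only, trend and robust moderation, slide as a fixed or random block, a replicate block, a threshold of 0.05, the mean over probes, the deposited table, and leaving out each animal.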

Additional observations from a re-analysis of the deposited data

Results flagged for a closer look

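Among the 12 genes called between ages, 36 groups of 4 or 5 arrays were examined for an array far from the others of its group, and 1 was found. AQP1 in GD100 control replicate 4 was at 15.76, while the other 4 GD100 controls lay between 15.10 and 15.26; the gap was 0.762 of the whole range. Chance alone marks about 1 in 20 such groups. Without this array the rise of AQP1 between control ages stayed past the threshold.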

How the results depend on the processing

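The 37 single-gene differences between ages with an adjusted p of at most 0.05 (limma) were followed, a choice that favors a stable sign. Of their 1147 values under the alternatives, 0 reversed, 104 lost the call and 37 gained it. The 11 calls in controls (26.2% of the members, beside 11.5% of all probes) became 6 without scaling (14.3% beside 7.57%). They became 3 with the compared groups only (7.14% beside 5.8%), 2 with slide as a fixed block (4.76% beside 6.10%) and 2 with a replicate block (4.76% beside 4.74%). At a threshold of 0.05 they were 20 (47.6% beside 21.2%). As animals were left out they ranged from 5 (11.9% beside 7.48%) to 13 (31.0% beside 10.1%). With the compared groups only and with either block the members' share was thus near or below that of all probes. The 9 calls in BPA groups became 4 with the compared groups only (9.52% beside 5.82%) and 3 with the fixed slide block (7.14% beside 2.53%). They were 17 at 0.05 (40.5% beside 21.0%) and 6 under the replicate block (14.3% beside 7.14%). Over animals left out they ranged from 4 (9.52% beside 5.84%) to 12 (28.6% beside 10.5%). The 7 of 44 pathway genes called in controls became 4 with the replicate block, beside 4.74% of all probes, and 15 at 0.05, beside 21.2%. Without scaling the median of all probes itself moved to 0.13 between ages in BPA groups, to 0.14 between GD165 BPA and control and to 0.16 in the interaction, where the members' medians were 0.67, 0.20 and 0.20. The cause of these shifts was not tested, except that a threshold of 0.05 is less strict and the compared groups leave fewer arrays in the fit. Replicate numbers did not pair the animals (correlation of deviations −0.17 to 0.16 over 19 pairs with the same number). GD165 control replicate 6 alone carries its number, so it adds nothing to the fit with that block. Leaving out this array by itself gave 5 calls in controls. Its part in the calls lost under the replicate block was not tested. Between BPA and control, and in the interaction, 0 members were called in every alternative run. RGS5 was called in both age comparisons under each alternative, and NRP2 was lost when its probes were averaged. Probes of low signal, such as SELE and MMRN1, limit what can be detected with 3 to 5 arrays a group.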
